A study of Mus musculus with 5 samples.

Results

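Foxp3-expressing regulatory T cells were examined as single cells of mouse skin. Members were chosen by their own UMI counts: a member was a cell with at least 1 UMI (unique molecular identifier, 1 per captured transcript molecule) of Foxp3, at least 1 UMI over Cd3d, Cd3e and Cd3g, none of the gamma-delta receptor gene Trdc and at most 2 UMIs over the macrophage genes C1qa, C1qb and C1qc. Cells had at least 200 detected genes and under 20% mitochondrial UMIs. The rule found 73 cells among the 11942 kept cells of all 5 libraries: 3 in untreated dermis, 45 in dermis after imiquimod and 25 in lesional skin. They were set against 303 alpha-beta T cells without a Foxp3 UMI from the same 3 libraries, called Foxp3-zero T cells (24, 105 and 174 cells), which had at least 2 Cd3 UMIs, at least 1 Trac UMI and no Trdc UMI. Foxp3, the Cd3 genes, Trac, Trdc and the C1q genes chose these cells, so their values are description only.

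The series measured skin of mice with 1 droplet library per group, so no difference between groups has a replicate check. The untreated dermis and the imiquimod dermis came from wild-type C57BL/6 mice of 10 weeks, the latter given imiquimod, a TLR7 agonist that produces psoriasis-like inflammation, on the ear for 5 days. The lesional library was whole skin of untreated 18-week mice on C57BL/6 with the genotype K5. Pp6fl/fl. The K5 promoter is active in basal keratinocytes, and the labels give no further detail of the driver. Epidermis of untreated wild-type mice and non-lesional epidermis of 10-week K5. Pp6fl/fl mice made up the other libraries. The body site of mice without imiquimod and the number of mice per library are not given in the sources used here. Tissue layer, age, genotype, site and library preparation therefore cannot be told apart from condition.

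Foxp3 is the transcription factor that specifies regulatory T cells, which restrain other T cells through the checkpoint receptor CTLA-4, capture of interleukin-2 by its receptor chain CD25 (Il2ra) and inhibitory cytokines. Skin holds a resident population that is thought to be activated and rich in TNF receptor family members such as OX40 (Tnfrsf4) and GITR (Tnfrsf18), and that can express the repair factor amphiregulin (Areg), the IL-33 receptor ST2 (Il1rl1) and GATA3. In psoriasis-like inflammation they share the tissue with T cells that make IL-17A and IL-22.

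Members were a small part of each library, at 0.576% of kept cells in untreated dermis (exact binomial 95% interval 0.119 to 1.67, 3 of 521), 0.902% in imiquimod dermis (0.658 to 1.20, 45 of 4991) and 0.943% in lesional skin (0.611 to 1.39, 25 of 2652). The epidermal libraries held 0 members among 905 and 2873 kept cells, which allows shares of up to 0.331% and 0.104%. All intervals cover counting error only. Median depth was 1965, 5192 and 4833 UMIs per member in untreated dermis, imiquimod dermis and lesional skin, against 5211.5, 7936 and 4758 in Foxp3-zero T cells. The untreated sum held only 7454 UMIs, so that 1 UMI equals 134 CPM (UMIs scaled to a class total of 1000000), as in its Il1rl1 value. The lesional sum of 157565 UMIs drew 23.2% from 1 cell of 36600 UMIs. The imiquimod library shared 23 kept barcodes with the non-lesional epidermis, and 2 of its members were among its shared barcodes. No barcode was a member in more than 1 library. Doublets were not removed for the main values. Removing the top doublet scores took 0, 4 and 0 members.

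The members' Foxp3 was sparse. They held 4 Foxp3 UMIs in untreated dermis, 84 in imiquimod dermis and 84 in lesional skin, or 537, 313 and 533 CPM of summed UMIs, and at most 2, 7 and 11 in 1 cell. Of the 73 members, 36 had exactly 1 Foxp3 UMI. Ctla4 was detected in 16 of 25 imiquimod members with 1 Foxp3 UMI and in 17 of 20 with more, and in 7 of 9 and 14 of 16 in lesional skin. Il2ra was less even in imiquimod dermis, at 6 of 25 and 16 of 20, beside 36 of 105 Foxp3-zero T cells. In lesional skin Il2ra was detected in 7 of 9 and 10 of 16 members. Macrophages, taken as cells with at least 10 C1q UMIs and no Cd3, served as a background for free RNA: Foxp3 was detected in 1 of 172, 3 of 809 and 0 of 147 of them in untreated dermis, imiquimod dermis and lesional skin, and the last allows up to 2.04%.

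The C1q limit set aside many Foxp3-positive cells of the imiquimod dermis. Of its 86 cells with a Foxp3 UMI, 20 had Cd3, no Trdc and more than 2 C1q UMIs. Those 20 were deep, with a median of 16517 UMIs, and 17 held Ctla4 and 18 Tnfrsf4. Just inside the limit, 28 imiquimod members had 1 or 2 C1q UMIs, and 19 of these held Ctla4. Just outside it, 8 cells had 3 to 5, and 7 held Ctla4. A further 11 Foxp3-positive imiquimod cells had no Cd3 and no more than 2 C1q UMIs, and none of those 11 held Ctla4, Tnfrsf4 or Icos. In lesional skin 25 of 27 Foxp3-positive cells were members.

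The label was checked with marker genes that the rule did not use. Of Ctla4, Tnfrsf4 and the costimulatory receptor gene Icos, 44 members had all 3, 18 had 2, 7 had 1 and 4 had none. Of these 4, 3 were imiquimod cells of 10102, 5088 and 4992 UMIs, each with 1 Foxp3 UMI, 1 Cd3 UMI and no Trac UMI. Of the 18-gene list below they held only Capg, Tnfrsf1b or Il2ra UMIs, so their label is weak. They stayed in the main values of members. A Trac UMI was found in 37 of 45 imiquimod and 21 of 25 lesional members. Ctla4 was detected in 73.3% of imiquimod members (58.1 to 85.4) and 44.8% of Foxp3-zero T cells there, and in 84.0% (63.9 to 95.5) and 33.9% in lesional skin. Macrophages, deeper at medians of 9714 and 11427 UMIs, had Ctla4 in 2.97% and 0.680%. Tnfrsf4 was detected in 82.2% (67.9 to 92.0) of imiquimod members and 68.0% (46.5 to 85.1) of lesional members, against 47.6% and 27.0% of Foxp3-zero T cells. Icos separated the classes least, at 82.2% and 92.0% of members and 70.5% and 56.9% of Foxp3-zero T cells. The CD8 gene Cd8a was found in 0 of 73 members, which allows up to 4.11%, and Cd4 in 30 of 73.

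Depth differed between classes, so cells were thinned to 2000 UMIs, which left 38 imiquimod and 24 lesional members and 1 untreated member. Of an 18-gene regulatory T cell list without Foxp3 (Ctla4, Il2ra, Ikzf2, Icos, Tnfrsf4, Tnfrsf9, Tnfrsf18, Izumo1r and others), the median member then had 7 genes with a UMI in imiquimod dermis and 6 in lesional skin. Foxp3-zero T cells had medians of 3 and 2, and macrophages 1 and 1. The classes overlapped: imiquimod members ranged from 0 to 11 genes and Foxp3-zero T cells from 0 to 10. Thinned detection of Ctla4 was 19 of 38 members against 25.3% of Foxp3-zero T cells in imiquimod dermis and 70.8% against 20.1% in lesional skin. Unthinned, 13 Foxp3-zero T cells in imiquimod dermis and 13 in lesional skin had Ctla4, Tnfrsf4 and Il2ra together, and whether these held Foxp3 RNA that was not captured was not tested.

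**Figure D1:**
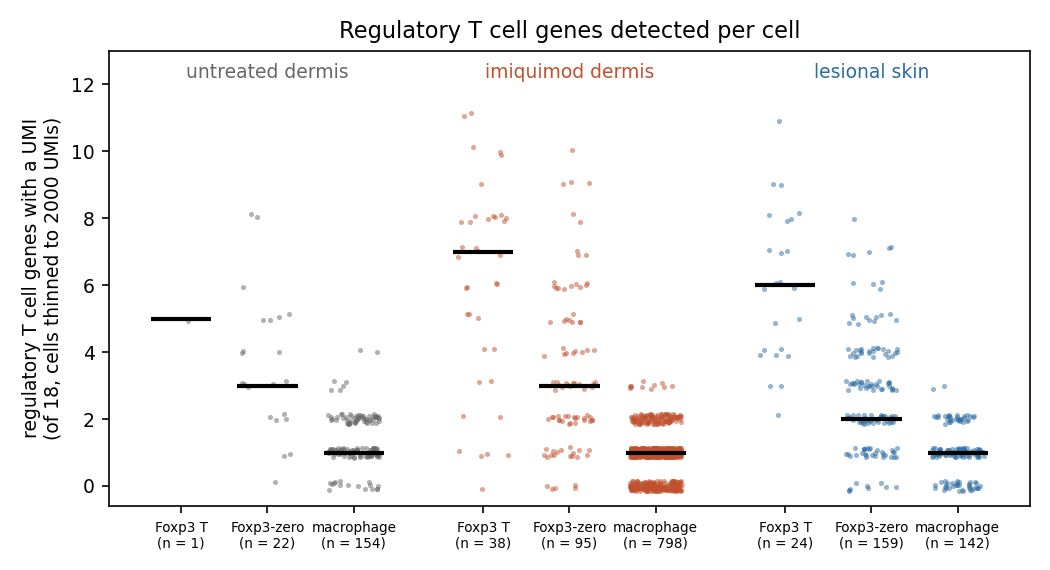
Each point is a cell thinned to 2000 UMIs, and the y axis gives how many of 18 regulatory T cell genes had a UMI, with small jitter; bars are medians. Foxp3 T cells had medians of 5, 7 and 6 in untreated dermis, imiquimod dermis and lesional skin, Foxp3-zero T cells 3, 3 and 2, and macrophages 1 in each.

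Among alpha-beta T cells of both classes, members made up 11.1% in untreated dermis (2.35 to 29.2, 3 of 27), 30.0% in imiquimod dermis (22.8 to 38.0, 45 of 150) and 12.6% in lesional skin (8.30 to 18.0, 25 of 199). The imiquimod and lesional intervals did not overlap, and the untreated interval overlapped both. With one T cell gate for both classes (at least 2 Cd3 UMIs, Trac, and the C1q limit) the shares were 8.70%, 34.9% and 10.8%. With gates applied after thinning to 2000 UMIs they were 13.3%, 26.6% and 10.9%, and the imiquimod interval (17.3 to 37.7) then met the lesional one (6.11 to 17.7). Against Foxp3-zero T cells with Cd4 and no Cd8 UMI alone, members were 60.0% of 75 cells in imiquimod dermis, 26.6% of 94 in lesional skin and 60.0% of 5 in untreated dermis. Members needed no Cd4 UMI in this setting, and only 12 of 45 imiquimod and 17 of 25 lesional members had Cd4. This unequal gate raises the share, and a share with Cd4 asked of both classes was not computed. Imiquimod dermis stood above lesional skin in all these settings, of which the Cd4 setting is a weak check, and the level varied.

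**Figure D2:**
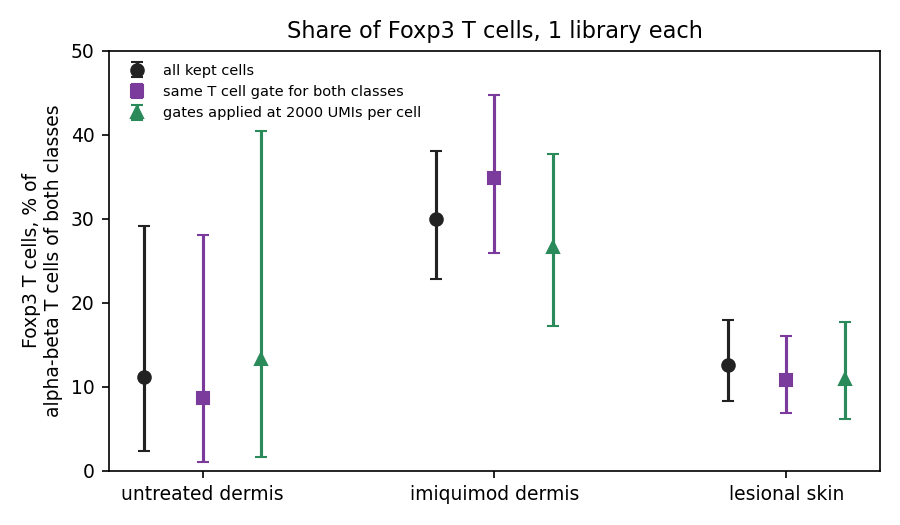
Share of Foxp3 T cells among alpha-beta T cells (y axis, percent) in 1 library of each group (x axis), with exact binomial 95% intervals, for all kept cells, for one gate applied to both classes and for gates applied at 2000 UMIs per cell. The imiquimod dermis was highest in each, at 30.0%, 34.9% and 26.6%.

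Which genes set members apart from the other alpha-beta T cells was tested over the 6 UMI sums of 3 libraries and 2 classes, with the library as a block. By edgeR's quasi-likelihood test at an adjusted p under 0.05, 32 of 2824 tested genes (1.13%) were higher and 28 (0.992%) lower in members. By fold change the highest were Klrg1, Tnfrsf9 and Nrn1, and the lowest Tcrg-C1, Hist1h2ap and Il17a. Calls leaned on the untreated dermis with its 3 members: without it 0 genes were higher and 2 lower among 6367 tested. All 60 genes kept their direction without it, and 54 of 60 had an unadjusted p under 0.05, as did 495 of all tested. Without the imiquimod dermis 14 were higher and 25 lower, and without the lesional skin 14 and 14. With the same T cell gate for both classes 20 were higher and 26 lower.

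Among costimulatory and checkpoint receptors, 5 of 11 tested were higher in members and none lower. Tnfrsf9 (4-1BB, a costimulatory receptor) stood at 1342, 1765 and 1155 CPM in members of untreated dermis, imiquimod dermis and lesional skin, against 256, 273 and 61.3 CPM in Foxp3-zero T cells. It was higher in 3 of 3 libraries (log2 fold change 2.82 ± 0.40 SE, edgeR adjusted p 1.1e-09). Ctla4 followed at 402, 667 and 1542 CPM against 55.4, 199.96 and 231 (2.05 ± 0.40, edgeR adjusted p 5.09e-05). Every library's member value of both genes lay above every Foxp3-zero value. Tnfrsf18 was 1207, 1184 and 451 CPM against 305, 213 and 134 (1.75 ± 0.37), and Tnfrsf4 was 939, 2257 and 368 CPM against 249, 398 and 114 (1.75 ± 0.38). For Tnfrsf4 the lesional member value lay under the imiquimod Foxp3-zero value, so the classes overlapped across libraries though not within one. Against Cd4-positive Foxp3-zero T cells alone, Tnfrsf9 (2.10) and Tnfrsf18 (1.23) still passed, while Ctla4 was at 1.11 (edgeR adjusted p 0.0616) and Tnfrsf4 at 0.78 (edgeR adjusted p 0.252).

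Of the 18 regulatory T cell genes, 12 passed the filter on low counts, 6 of these were higher in members and none lower, with a median log2 fold change of 1.32 against -0.08 over all genes. The remaining calls were Ikzf2 (Helios, a transcription factor of thymus-derived regulatory T cells), at 402, 696 and 749 CPM against 96.9, 196 and 147, and Il2ra. Il2ra was 134, 175 and 628 CPM in members against 138, 64.4 and 57.4 (1.96 ± 0.39), so it did not differ in untreated dermis, where the members held 1 UMI. In lesional skin 48 of its 99 UMIs came from the deepest cell. Icos did not pass, at 939, 566 and 901 CPM against 637, 261 and 430 (0.64 ± 0.36, edgeR adjusted p 0.575), although it was above in each library.

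Genes of tissue-resident effector regulatory T cells gave 3 higher and 1 lower of 14 tested, with a median of 0.42. Klrg1 (an inhibitory receptor for cadherins) had the highest fold change, at 402, 339 and 95.2 CPM in members against 0, 57.7 and 5.93 (2.95 ± 0.46, edgeR adjusted p 6.65e-08). Il1rl1 was 134, 48.4 and 152 CPM against 83.1, 12.5 and 18.8 (2.07 ± 0.46), with 19 of its 24 lesional UMIs in 1 cell. Irf4, a factor of effector differentiation, was 134, 67.0 and 102 CPM against 27.7, 8.65 and 40.5 (1.76 ± 0.47). The lower gene was Cxcr6, a chemokine receptor of resident T cells, at 0, 41.0 and 425 CPM against 845, 337 and 451 (-1.86 ± 0.43), which nearly met in lesional skin. Against Cd4-positive Foxp3-zero T cells alone Klrg1 was at 1.49 and passed, while Il1rl1 (1.25), Irf4 (1.36) and Cxcr6 (-0.65) did not. Gata3, Maf and Batf did not pass (0.22 ± 0.41, 0.40 ± 0.37 and 0.87 ± 0.38 on the log2 scale).

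Suppressive mediators were mostly too sparse: 4 of 13 were tested and 1 was higher. That gene was Gzmb, the protease granzyme B, at 1744, 1795 and 292 CPM in members against 90.0, 634 and 59.3 (2.07 ± 0.38, edgeR adjusted p 1.65e-05). Areg was 537, 112 and 609 CPM in members against 76.2, 213 and 300, below the Foxp3-zero cells in imiquimod dermis and above them elsewhere, and did not pass (0.17 ± 0.38). Il10 was not tested. It was found in 9 of 73 members: 13.3% in imiquimod dermis and 3 of 25 in lesional skin, beside 14.0% and 22 of 147 macrophages. Gata3 was found in 36 members, Areg in 32 and both in 19.

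Further genes named by size and direction were Nrn1 (neuritin, 2.64 ± 0.55), Tubb6 (a beta-tubulin, 2.53 ± 0.47), Fam46a (2.17 ± 0.36), Gbp3 (an interferon-inducible GTPase, 1.83 ± 0.54) and Ttc39c (1.77 ± 0.42). All 5 passed, with edgeR adjusted p-values from 9.25e-07 to 0.0390. Fam46a was the best measured, at 402, 302 and 673 CPM against 41.5, 75.0 and 109 CPM. Nrn1 rested on 27 member UMIs in all, and against Cd4-positive Foxp3-zero T cells alone it was at 0.92 and Ttc39c at 0.79, neither passing. Gbp3 was as sparse, at 1, 14 and 11 member UMIs in untreated dermis, imiquimod dermis and lesional skin. With the same T cell gate for both classes Gbp3 was at 1.76 and did not pass (edgeR adjusted p 0.0821). In imiquimod dermis Tubb6 was 33.5 CPM in members against 19.2, on 9 and 20 UMIs. Of 17 cytokine receptors tested, 3 were higher: Il2ra, Il1rl1 and Il1r2, the decoy receptor of interleukin-1 (1.59 ± 0.38). Cd5, a negative regulator of T cell receptor signalling, was 671, 197 and 235 CPM in members against 111, 58.6 and 110 (1.32 ± 0.39). Against Cd4-positive Foxp3-zero T cells alone Il1r2 was at 0.66 and Cd5 at 0.27, neither passing. None of 12 NF-kB pathway genes and none of 11 glycolysis genes passed by edgeR, with 0 and 0 at an unadjusted p under 0.05, none by DESeq2, and medians of 0.47 and -0.05.

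Few homing and maturation genes were called, and only 13 of 24 and 5 of 10 genes of these lists were tested. A missing call does not show a lack of difference, since on simulated counts the test called 35% of genes raised 3-fold. Of 13 homing receptors tested, none was higher and 1, Cxcr6, lower, and of 5 tested genes of naive and central memory T cells none passed by edgeR (0 at an unadjusted p under 0.05, and none by DESeq2). Their medians were 0.06 and 0.20. Ccr8, a chemokine receptor of skin regulatory T cells, was found in 6 imiquimod members and 0 lesional ones, and Ccr4 in 9 and 3. Of 9 interferon-stimulated genes tested 1 was higher, Ifi27l2a, at 268, 1557 and 685 CPM in members against 55.4, 473 and 280 in Foxp3-zero T cells (1.34 ± 0.40), and not passing against Cd4-positive ones (0.43).

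**Figure D3:**
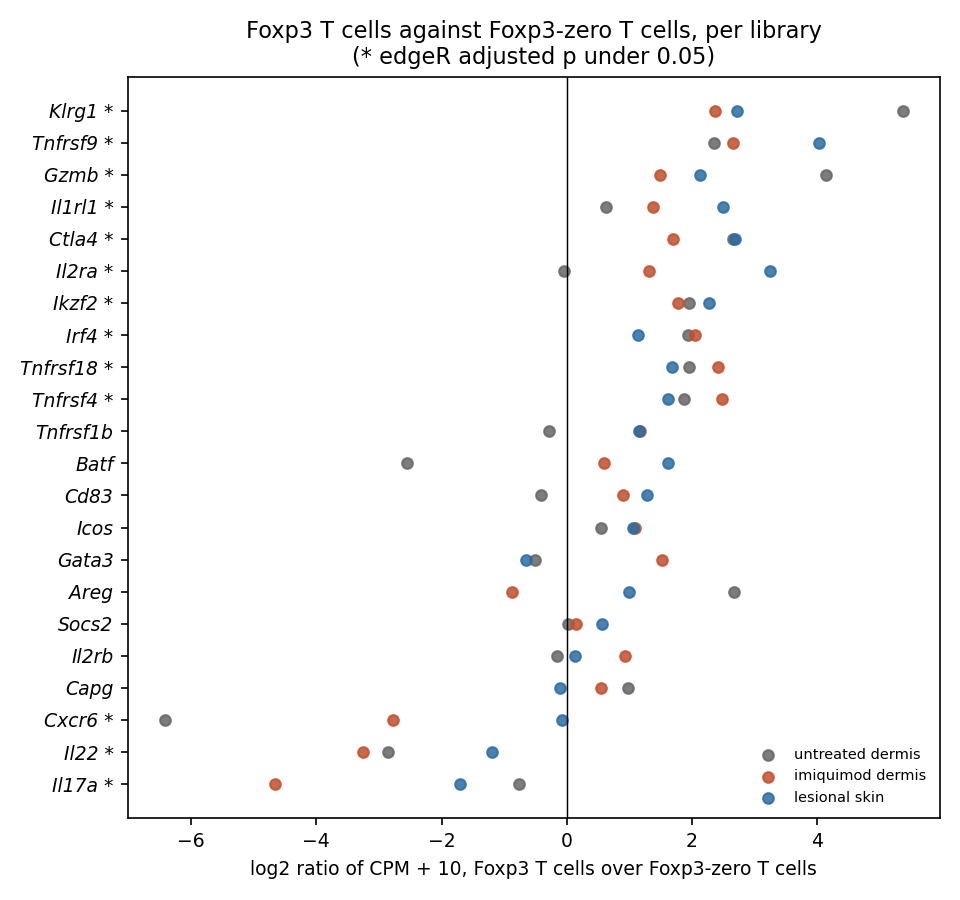
Log2 ratio of CPM + 10 in Foxp3 T cells over Foxp3-zero T cells (x axis) for 22 genes (y axis), with 1 point for each library; an asterisk marks an edgeR adjusted p under 0.05. Tnfrsf9, Ctla4 and Tnfrsf4 lay right of 0 in 3 of 3 libraries, and Il17a and Il22 left of it.

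Of 7 effector cytokines tested, Il17a and Il22 were lower in members and the other 5 did not pass, with a list median of -1.42. Il17a was 0, 37.2 and 50.8 CPM in members against 6.92, 1178 and 188 in Foxp3-zero T cells (-3.86 ± 0.54, edgeR adjusted p 1.01e-09). Il22 was 0, 469 and 0 CPM against 62.3, 4562 and 12.9 (-3.51 ± 0.56), and 119 of the 126 imiquimod UMIs came from 1 member. Members held 10 Il17a UMIs in 6 cells of the imiquimod dermis and 8 UMIs in 4 cells of the lesional skin. Neither Il17a nor Il22 had a value against Cd4-positive Foxp3-zero T cells alone or with the same T cell gate for both classes. Their calls were therefore not checked in those settings. Tcrg-C1, a constant segment of the gamma chain, was at 1 UMI over all members and 139 over Foxp3-zero T cells, and its fold change depends on the prior count.

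The other lower genes were of mixed kinds. Hist1h2ap, a replication histone, was 0, 11.2 and 6.35 CPM against 921, 122 and 150 (-4.25 ± 0.58). The cell cycle list had 2 lower of 8 tested, Stmn1 (-1.61 ± 0.41) and Tuba1b (-1.30 ± 0.39), and none higher. Neither passed with one T cell gate for both classes (-1.17 and -0.65), and with no C1q limit Hist1h2ap was at -0.52 and did not pass. Of 22 immediate-early and heat shock genes, 4 were lower and none higher, with a median of -0.95: Atf3 (-2.29 ± 0.46), Egr1, Klf4 and Junb. Atf3 stood at 134, 37.2 and 57.1 CPM in members against 270, 134 and 312. Jaml (-3.26 ± 0.58), Serpinb1a (a serine protease inhibitor, -3.23 ± 0.52), Lmo4 (-2.37 ± 0.51) and the small heat shock gene Hspb1 (-2.22 ± 0.44) also fell, as did the cytotoxic granule gene Nkg7 (-1.42 ± 0.39). Against Cd4-positive Foxp3-zero T cells alone, Nkg7 was level at 0.01.

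Macrophage RNA moved with the classes. Apoe (-2.60 ± 0.44), Lyz2 (-1.47 ± 0.41) and the MHC class II gene H2-Aa (-2.19 ± 0.51) were lower in members, whose C1q was limited by the rule while that of Foxp3-zero T cells was not. With one T cell gate for both classes Lyz2 was at 0.22 and H2-Aa at -0.19, neither passing, and Apoe was at -1.86 (edgeR adjusted p 0.0061). That gate put the C1q limit on both classes and also asked members for at least 2 Cd3 UMIs and Trac. It left 37 imiquimod and 21 lesional members, so the part of the C1q limit alone was not tested. The 7 macrophage genes summed to 805, 3404 and 57.1 CPM in members and 5684, 3536 and 1028 CPM in Foxp3-zero T cells, against 30176, 17188 and 30949 CPM in macrophages. These sums include C1qa, C1qb and C1qc, by which members were limited and macrophages chosen. The sums are therefore description only. The part of macrophage RNA in the other differences was not tested.

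Promoters were read for 12 of the genes above, of which 9 had an entry in RefSeq's table (build GRCm38.p6). In the 250 bases before each listed start, on both strands, a forkhead core (GTAAACA) was present in 1 of the 9 genes and in 3.17% of all 32851 promoters. An AP-1 site (TGANTCA) was present in 2 genes and 6.75% of promoters. For NF-kB only 1 strict pattern was searched, and it was present in 0 genes and 1.21% of promoters. Other forms of the NF-kB site were not searched, so the 0 does not show that these promoters lack one. The promoters with a match are shown 5′ to 3′ on the gene's strand, with the match in capitals. They are those of 3 genes higher in members. Matches are descriptions, and the 3′ counts do not tell which start was used.
Il1rl1, chr1:40439379-40439628, plus strand, forkhead core 117 bases before the start: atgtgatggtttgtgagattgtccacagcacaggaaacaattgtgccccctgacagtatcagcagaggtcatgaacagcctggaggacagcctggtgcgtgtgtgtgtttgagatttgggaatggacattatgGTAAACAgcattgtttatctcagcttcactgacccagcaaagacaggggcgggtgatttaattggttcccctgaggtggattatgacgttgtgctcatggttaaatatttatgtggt
Tnfrsf9, chr4:150927749-150927998, plus strand, AP-1 site 15 bases before the start: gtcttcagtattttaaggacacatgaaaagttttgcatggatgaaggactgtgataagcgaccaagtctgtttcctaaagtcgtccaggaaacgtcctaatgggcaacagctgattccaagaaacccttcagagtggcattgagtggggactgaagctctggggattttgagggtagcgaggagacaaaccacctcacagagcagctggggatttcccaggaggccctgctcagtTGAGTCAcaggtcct
Gzmb, chr14:56262335-56262584, minus strand, AP-1 site 58 bases before the start: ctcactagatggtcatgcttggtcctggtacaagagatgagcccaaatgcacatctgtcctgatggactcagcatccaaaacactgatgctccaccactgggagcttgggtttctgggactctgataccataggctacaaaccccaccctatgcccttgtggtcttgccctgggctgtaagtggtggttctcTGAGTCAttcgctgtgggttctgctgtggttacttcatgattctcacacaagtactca

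Members of lesional skin and imiquimod dermis were then set side by side, as 1 library each and with no test. Of 3728 measured genes, 227 (6.09%) were higher and 131 (3.51%) lower in lesional members with the whole exact interval of the ratio beyond 2-fold. This balance depends on scaling: the median log2 ratio was 0.36 by class totals, and TMM factors moved every ratio by -0.39. Of the 4416 genes measured with TMM factors, 96 were higher and 234 lower (29.1% of called genes higher in place of 63.4%). Directions given here are by class totals and held with TMM factors for the genes named, apart from Ikzf2. Other cells' RNA also differed. In members, the macrophage list, which includes the limited C1q genes, summed to 3404 CPM in imiquimod dermis and 57.1 in lesional skin. The neutrophil list summed to 2789 and 12.7, the dendritic list to 2261 and 260, the fibroblast list to 2074 and 171, and the keratinocyte list to 22.3 and 133. The part of this RNA in the ratios was not tested.

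Of 15 measured genes of the regulatory T cell list, Il2ra was higher and Tnfrsf4 and Tnfrsf18 were lower in lesional members. The other 12 were not beyond 2-fold in either direction, and with TMM factors none was higher and 2 lower. Tnfrsf4 was 368 CPM in 25 lesional and 2257 CPM in 45 imiquimod members, a ratio of 0.163 (exact interval 0.122 to 0.214), against 0.286 in Foxp3-zero T cells. Tnfrsf18 was 451 and 1184 CPM (0.380, 0.290 to 0.494). Without the deepest member of each library the Tnfrsf18 interval no longer lay wholly beyond 2-fold (log2 ratio -1.15 in place of -1.38). Gzmb was 292 and 1795 CPM (0.163, 0.117 to 0.220), and Klrg1 95.2 and 339 CPM (0.281, 0.151 to 0.488). Each had a ratio under 1 in Foxp3-zero T cells too, at 0.630, 0.0937 and 0.103 in that order.

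Among other genes of the list, directions were mixed. Tnfrsf9 was 1155 CPM in lesional and 1765 CPM in imiquimod members (0.654, 0.548 to 0.778), and Capg, an actin-capping protein gene, 558 and 1076 CPM (0.519, 0.404 to 0.661). Ctla4 was 1542 CPM in lesional and 667 CPM in imiquimod members (2.31-fold, 1.90 to 2.82), against 1.16-fold in Foxp3-zero T cells. Ikzf2 was 749 and 696 CPM (1.08-fold, 0.847 to 1.36). Icos was 901 and 566 CPM (1.59-fold, 1.26 to 2.02). Il2ra was 628 and 175 CPM (3.59-fold, 2.51 to 5.19). Without the deepest members its log2 ratio fell from 1.79 to 1.13, and its interval was not wholly beyond 2-fold.

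Areg was 609 CPM in 25 lesional members and 112 CPM in 45 imiquimod members (5.45-fold, 3.59 to 8.51), and 1.40-fold in Foxp3-zero T cells. Its UMIs were spread over 13 lesional cells, with at most 26 in 1. Among tissue-resident genes, 5 of 15 measured were higher and 1 lower, or 3 and 2 of 16 with TMM factors. The higher genes were Cxcr6 (425 and 41.0 CPM, 10.4-fold), Prdm1 (Blimp-1, 5.87-fold), Maf (4.34-fold), Bhlhe40 (3.60-fold) and Rora (2.97-fold). In Foxp3-zero T cells these genes were 1.34, 5.14, 3.45, 3.65 and 2.56-fold higher in lesional skin. Nt5e, which encodes the adenosine-producing enzyme CD73, was 152 and 29.8 CPM (5.11-fold, 2.22 to 13.2).

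Genes of recirculating T cells were higher in lesional members in 4 of 6 measured (3 with TMM factors): Il7r (692 and 160 CPM), Satb1 (381 and 81.9), S1pr1 (171 and 33.5) and Ccr7 (133 and 14.9). In Foxp3-zero T cells each was also higher in lesional skin, from 2.52-fold for Satb1 to 9.26-fold for Ccr7. The Ccr7 UMIs came from 6 lesional and 3 imiquimod members. Havcr2 (TIM-3) was 286 and 22.3 CPM (12.8-fold, 5.44 to 36.7) and only 1.68-fold higher in Foxp3-zero T cells, a difference that was not tested. Heat shock gene Hspa1b was 7318 and 1028 CPM in members (7.12-fold, 6.24 to 8.15) and 15.2-fold higher in Foxp3-zero T cells of lesional skin; its reads can be shared with the near-identical Hspa1a. Jun and Klf6 were the other 2 higher genes of 21 measured immediate-early and stress genes, of which 2 were higher with TMM factors. Of 16 homing receptors 4 were higher (2 with TMM factors), among them the retention marker Cd69 (679 and 190 CPM), as were 1 of 15 interferon-stimulated and 1 of 12 NF-kB genes (Traf1, 996 and 328 CPM) and none of 13 glycolysis genes. With TMM factors no NF-kB gene was higher, 1 interferon-stimulated gene was higher and 1 lower, and 2 glycolysis genes were lower.

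Chemokine and cytokine genes were lower in lesional members in 4 of 7 measured. Ccl4 was 283 CPM in imiquimod members and 0 UMIs in lesional ones, and Ccl3 242 CPM and 0 UMIs. The imiquimod UMIs lay in 26 and 25 of 45 members, and other cells there held 1137 and 1026 CPM. Il22 was at 0 UMIs in lesional members, at least 24.6-fold lower, but rested on 1 imiquimod cell. Ccl5 was 6.35 and 130 CPM (0.0487, 0.00120 to 0.290), with 23 of 35 imiquimod UMIs in 1 cell. Of 15 measured cell cycle genes, 4 were higher in lesional members (Ube2c, Cenpf, Cenpe and Mki67), and 2 with TMM factors. Without the deepest member of each library none of 8 measured was, since 34 of 36 Ube2c UMIs and 16 of 20 Mki67 UMIs lay in 1 cell.

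The 10 genes with the highest ratios in lesional members included several spread over many cells. Kit, a receptor tyrosine kinase, had 25 UMIs in 9 lesional members and 0 in imiquimod members, at least 14.2-fold higher. Lars2, a mitochondrial leucyl-tRNA synthetase, had 31 UMIs in 14 cells against 1 (52.8-fold, 8.80 to 2153), and Irs2, an insulin signalling adaptor, 26 in 11 cells against 1 (44.3-fold, 7.28 to 1817). Tnfsf8 (CD30 ligand) had 30 UMIs in 9 cells against 2 (25.6-fold, 6.49 to 221). Ttn had 25 in 9 cells against 1, and Rgs16 41 in 8 cells against 1 (69.9-fold, 11.9 to 2826). Rsad2, Cpd and Batf3 rested largely on 1 cell, with 16 of 18, 20 of 31 and 8 of 16 UMIs. Klrc1 had 17 UMIs in 4 cells and 0 in imiquimod members. Most of these genes were also higher in Foxp3-zero T cells of lesional skin. There Kit had 49 UMIs against 0 in imiquimod dermis. Ttn was 11.0-fold, Rgs16 8.23-fold, Klrc1 8.14-fold, Tnfsf8 5.61-fold, Lars2 5.30-fold, Rsad2 2.79-fold and Irs2 2.11-fold higher. Batf3 was at 2.31-fold (0.646 to 10.3) and Cpd level at 1.02-fold (0.728 to 1.42).

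Of the 10 lowest genes, 7 had more CPM in the other cells of the imiquimod dermis than in its members. Saa3, an acute-phase gene, was 25.4 CPM in lesional and 5925 CPM in imiquimod members, 233-fold lower (91.0 to 858). In imiquimod dermis it was also at 7525 CPM in Foxp3-zero T cells and 3591 CPM in all other cells, with 1078 of 1591 member UMIs in 1 cell. Fcer1g and Tyrobp, adaptors of myeloid and natural killer cells, were at 1009 and 849 CPM in imiquimod members, at 3505 and 3431 CPM in other cells there, and at 0 UMIs in lesional ones (at least 53.0-fold and 44.6-fold lower). Ifitm3, Ifitm1, Wfdc17, Plac8 and H2-Eb1 were at 1095, 495, 775, 317 and 298 CPM in imiquimod members and at 2550, 2326, 2830, 1119 and 1446 CPM in other cells there. Crabp1 had 93 of 114 UMIs in 1 member.

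**Figure D4:**
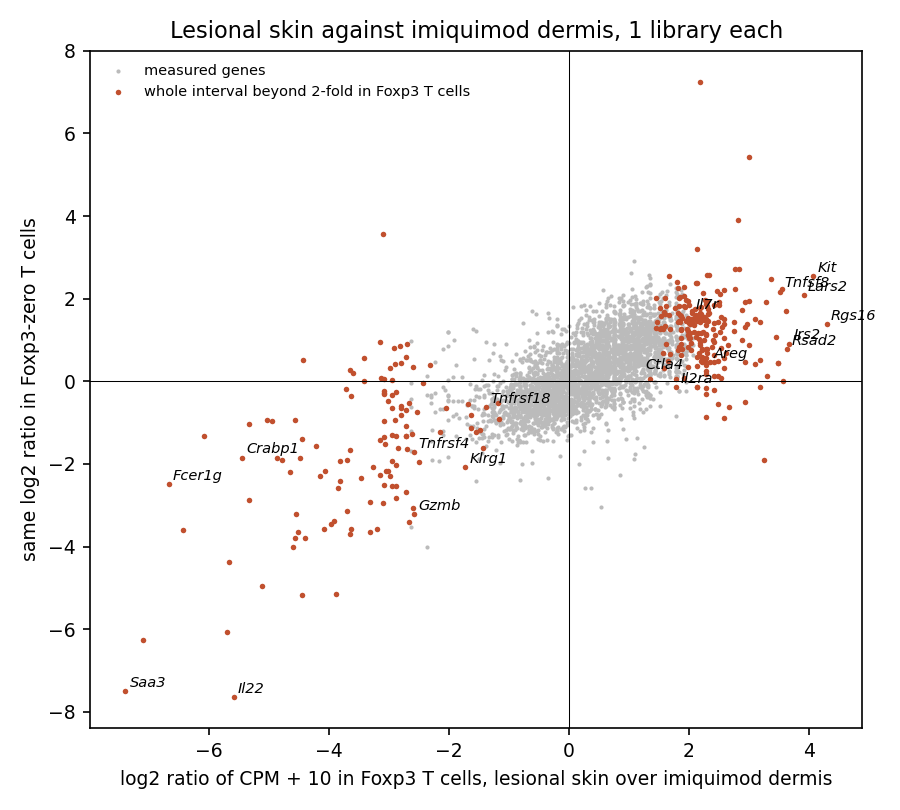
Log2 ratio of CPM + 10, lesional skin over imiquimod dermis, in Foxp3 T cells (x axis) and Foxp3-zero T cells (y axis) for the measured genes; coloured points had an interval wholly beyond 2-fold in Foxp3 T cells. Tnfrsf4 lay low on both axes, and Areg and Il2ra lay to the right at a Foxp3-zero ratio near level, at 1.40 and 0.890-fold.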

How the data were processed

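Per the labels' protocols, enzyme-digested skin was sorted by FACS to discard dead cells before Chromium 3′ v3 libraries were made. The tools named are CASAVA and Cell Ranger and the build is mm10, per the submitters' processing notes; the matrices were written by software version 3.0.2, per the file headers. The deposited values are the authors' raw UMI counts for 31053 genes per cell barcode, with no normalization. No source used here says how cells were called.

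From the counts, cells were gated as the report states, and UMIs were summed per library and class and divided by the class total to give CPM. Kept cells held 2958235 UMIs in untreated dermis, 40826206 in imiquimod dermis and 32142983 in lesional skin. Classes were compared with edgeR 4.0.16 (R 4.3.3; quasi-likelihood, TMM, filterByExpr, library block, Benjamini-Hochberg over all tested genes), with 3 libraries as replicates. Rule genes were left out of the calls. Libraries were compared by the ratio of CPM with an exact conditional binomial 95% interval, without a test; measured genes had at least 10 UMIs over both libraries. Planned comparisons of members with the untreated dermis were not made, since it held 3. Log2 ratios carry a pseudocount of 10 CPM. Other tools were Python 3.11.15, scipy 1.17.1, scanpy 1.11.5 (Scrublet) and DESeq2 1.42.0.

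Named genes were the 15 highest and 10 lowest called genes of consistent direction in libraries with at least 5 UMIs, and between libraries the 10 highest and 10 lowest ratios at 50 CPM or more where other cells held at most 5 times the CPM. Mitochondrial, ribosomal, haemoglobin, predicted, receptor V segment, Xist and Y-linked genes were not named. Some genes that the rule or the lists name are not reported here. Markers and list examples came from 21 gene lists. Others were chosen after their values were seen: Il2ra, Icos, Areg, Gata3, Maf, Batf, Lyz2, H2-Aa, Havcr2, Nt5e, Hspa1b and Capg. The members and lists were chosen with earlier results of these data known. On simulated counts with known changes, the class test (2824 genes) called 35% of genes raised 3-fold, 100% of those raised 8-fold and 0.229% of unchanged genes. The ratio step (2866 genes) placed 1% of 3-fold and 100% of 8-fold genes beyond 2-fold, and no unchanged gene. Its intervals held the true ratio for 95.6% of unchanged genes, so the simulated spread was near the counting error that the interval assumes. Real UMIs of some genes gathered in 1 cell, as for Saa3 and Crabp1, which counting error does not cover. The ratio simulation therefore gives no error rate for the real ratios. The libraries' mice, if several, are not separated, so p-values measure only the spread between libraries.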

Additional observations from a re-analysis of the deposited data

Results flagged for a closer look

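For 21 genes the difference between Foxp3 T cells and Foxp3-zero T cells ran in opposite directions in lesional skin and imiquimod dermis, with both exact intervals clear of level. The number of genes looked through is not given here, so the 21 have no share over all genes beside them. The intervals cover counting error only, and how many such genes counting error and single cells would give was not tested. The difference between the libraries was not tested, and each value below is the lesional minus the imiquimod log2 ratio with a pseudocount of 10 CPM. Members stood above Foxp3-zero T cells in lesional skin and below them in imiquimod dermis for Areg (1.88), Cd69 (1.72), Jun (1.28), Ly6a (1.99), Irs2 (2.76), Trbc2 (0.94), Cpd (3.55), Birc5 (2.49) and Ube2c (5.15). In lesional skin all 11 Birc5 UMIs, 34 of 36 Ube2c UMIs and 20 of 31 Cpd UMIs lay in 1 cell. Areg was 2.03-fold above (1.60 to 2.57) in lesional skin and 0.524-fold (0.345 to 0.769) in imiquimod dermis. The opposite pattern was found for Klf2 (-1.49), Dusp2 (-1.33), Hsph1 (-1.01), Jund (-0.91) and Hsp90aa1 (-0.37), and for genes abundant in other skin cells: Cd74 (-1.79), Col1a2 (-3.61), Dcn (-2.63), Sparc (-3.31), Ifitm3 (-4.76) and Plac8 (-4.09). Gzma (-3.98) had 21 of its 26 imiquimod member UMIs in 1 cell and none in lesional members. Cd69, a tissue retention marker, was 679 CPM in lesional members and 297 CPM in Foxp3-zero T cells there, against 190 and 284 CPM in imiquimod dermis.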

How the results depend on the processing

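Some settings kept the counts of called genes over all genes within 1.5 times of their main values in both comparisons. These were a stricter cell filter and leaving out shared barcodes, top Scrublet scores or the deepest member of each library. All deposited barcodes kept them so against Foxp3-zero T cells, and that setting had no value between libraries. Single lists moved: cell cycle genes higher between libraries went from 4 to 0 without the deepest members. The shared barcode, C1q limit and deepest-cell settings, and thinning and the common gate between libraries, were chosen after seeing the data. Against Foxp3-zero T cells (32 higher, 28 lower by edgeR), higher and lower genes numbered 7 and 12 with at least 2 Foxp3 UMIs, 13 and 7 against Cd4-positive cells, 6 and 1 after thinning to 2000 UMIs, and 6 and 16 with no C1q limit. One gate for both classes gave 20 higher. DESeq2 gave 58 lower and no low count filter gave 72. Leaving out 1 library gave 0 to 14 higher and 2 to 25 lower. The labels carry no replicate numbers and the library is the block in the main fit; with no replicate block 0 genes were higher and 1 lower, 79 at an unadjusted p under 0.05. For named genes with a call, 312 fold changes under the alternatives kept the call, 229 lost it and 4 changed sign. For 5 genes without a call, 72 kept their direction and 8 did not. The changes of sign were Gata3 (-0.075 with no replicate block, -0.25 with no C1q limit, and -0.95 to 1.01 leaving out 1 library), Areg (-0.45 to 1.18 leaving out 1 library, -0.086 without the untreated dermis, -0.0019 with at least 2 Foxp3 UMIs, -0.25 with one gate, -0.54 against Cd4-positive cells), Lyz2 (0.22 with one gate), H2-Aa (0.44 against Cd4-positive cells, 0.55 with no C1q limit) and Nkg7 (0.011 against Cd4-positive cells). The cause was not tested. The share of members moved to 60.0% (untreated), 60.0% (imiquimod) and 26.6% (lesional) against Cd4-positive cells, where members needed no Cd4 UMI. In imiquimod dermis it moved to 16.0% with at least 2 Foxp3 UMIs and 38.2% with no C1q limit. Lesional skin was at 8.42% with at least 2 Foxp3 UMIs, and its interval overlapped the imiquimod one. Between libraries (227 higher, 131 lower), the counts were 96 and 234 with TMM factors, 99 and 61 with at least 2 Foxp3 UMIs and 61 and 46 after thinning. These settings measured 4416, 3378 and 1882 genes in that order, in place of 3728. With no C1q limit 413 were higher, and with one gate 65 were lower. Of the named ratios only Ikzf2 changed sign, to -0.28 with TMM factors, -0.63 with at least 2 Foxp3 UMIs, -0.018 without top doublet scores and -0.25 with one gate. Thinned detection in members was 50% for Ctla4 and 57.9% for Icos in imiquimod dermis, and 29.2% for Tnfrsf4 and 70.8% for Icos in lesional skin. The 3 members and 7454 UMIs of the untreated dermis limit every comparison that uses it.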
